A study of Arabidopsis thaliana with 21 samples.

Results

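The jasmonate genes described here were 10 loci of Arabidopsis thaliana, picked by identifier from the 33341 loci of the deposited count files: LOX2 (AT3G45140), AOS (AT5G42650), AOC2 (AT3G25770), OPR3 (AT2G06050), MYC2 (AT1G32640), JAZ1 (AT1G19180), JAZ5 (AT1G17380), JAZ10 (AT5G13220), VSP1 (AT5G24780) and VSP2 (AT5G24770). All 10 passed the filter on low counts, which left 19626 loci for testing. RNA came from whole rosettes of the accession Col-0, 3 weeks old, raised on soil and left overnight in sealed chambers flushed with air. The 7 groups of 3 libraries each were T0D, taken from the dark at the end of the night, T2H, T5H and T8H, lit for 2, 5 and 8 h at the high intensity of 500 µE, and T2L, T5L and T8L, lit for 2, 5 and 8 h at the standard intensity of 100 µE. Genotype, age and growth conditions were the same in all groups, and no group carried a transgene or a mutation according to the labels. The series describes the harvest as biological triplicates, while how many plants made up a library is not stated in the sources used here, so p-values measure the spread between these libraries. Dark plants were sampled at 0 h only, so in every comparison with them light and time of day cannot be told apart. High and standard light were sampled at the same hours.

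Jasmonates are plant hormones made from chloroplast fatty acids. LOX2, a chloroplast lipoxygenase, oxygenates linolenic acid; AOS, allene oxide synthase, and AOC2, an allene oxide cyclase, turn the product into 12-oxo-phytodienoic acid; and OPR3 reduces that intermediate in the peroxisome, where beta-oxidation completes jasmonic acid. JAR1 joins jasmonic acid to isoleucine, and the conjugate brings the receptor COI1 to JAZ repressors, which are then degraded and set free transcription factors such as MYC2. In rosette leaves the pathway is known for its answer to wounding and chewing insects, LOX2, JAZ and VSP genes are among its induced genes, and VSP1 and VSP2 encode vegetative storage proteins long used as reporters of it.

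Coordinates are those of the files and equal the TAIR10.1 annotation for all 10 genes. LOX2 lay at chr3:16525245-16529352 and AOC2 at chr3:9406669-9408071, both on the plus strand, AOS at chr5:17097564-17099595 and OPR3 at chr2:2359114-2362375, both on the minus strand. MYC2 lay at chr1:11798119-11801407 and JAZ5 at chr1:5955155-5957511 on the minus strand, JAZ1 at chr1:6621777-6623668 and JAZ10 at chr5:4218786-4221077 on the plus strand. VSP2, at chr5:8500468-8502224, and VSP1, at chr5:8507590-8509201, were neighbours on the minus strand, 5365 bases apart with no locus between them. AOC2 stood in a row with AOC1 and AOC3, 1330 and 1088 bases away. Reads were 75 bases long, and none of the 75-base stretches of the 10 genes, of AOC1 or of AOC3 occurred exactly elsewhere in the genome. Reads placed with mismatches were not checked, so counts within the AOC row and within the VSP pair may still be shared. AOS and MYC2 have no intron in the annotation, and the other 8 genes were counted over 1 span that included their introns.

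The 300 bases before the annotated start of the 4 enzyme genes are shown because these genes rose together, and those of VSP1 and VSP2 because the genes are neighbours of 1 family. All are TAIR10.1 sequence from RefSeq, written from 5′ to 3′ on the strand of the gene, so that the last base adjoins the start. The windows were chr3:16524945-16525244 on the plus strand for LOX2, chr5:17099596-17099895 on the minus strand for AOS, chr3:9406369-9406668 on the plus strand for AOC2 and chr2:2362376-2362675 on the minus strand for OPR3. Capitals mark CACATG in LOX2, the G-box CACGTG in AOS and the evening element AAATATCT in AOC2, and OPR3 has no capitals because none of the motifs searched was in its window.
LOX2: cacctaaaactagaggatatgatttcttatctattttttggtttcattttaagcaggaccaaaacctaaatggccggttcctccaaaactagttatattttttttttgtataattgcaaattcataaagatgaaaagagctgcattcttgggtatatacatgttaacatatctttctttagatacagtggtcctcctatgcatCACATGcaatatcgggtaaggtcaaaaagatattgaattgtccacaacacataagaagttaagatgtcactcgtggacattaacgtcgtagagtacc
AOS: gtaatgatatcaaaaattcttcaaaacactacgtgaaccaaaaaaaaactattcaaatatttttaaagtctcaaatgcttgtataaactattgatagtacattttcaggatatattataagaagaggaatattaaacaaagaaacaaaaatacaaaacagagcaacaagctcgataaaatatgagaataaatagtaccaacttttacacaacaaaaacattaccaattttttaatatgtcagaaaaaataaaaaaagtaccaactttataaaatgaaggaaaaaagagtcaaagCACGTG
AOC2: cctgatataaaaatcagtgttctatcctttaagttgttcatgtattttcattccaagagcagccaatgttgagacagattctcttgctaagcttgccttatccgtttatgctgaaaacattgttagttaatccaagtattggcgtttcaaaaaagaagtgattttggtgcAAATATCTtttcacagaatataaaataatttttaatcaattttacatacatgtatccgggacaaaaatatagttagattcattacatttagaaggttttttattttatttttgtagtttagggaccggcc
OPR3: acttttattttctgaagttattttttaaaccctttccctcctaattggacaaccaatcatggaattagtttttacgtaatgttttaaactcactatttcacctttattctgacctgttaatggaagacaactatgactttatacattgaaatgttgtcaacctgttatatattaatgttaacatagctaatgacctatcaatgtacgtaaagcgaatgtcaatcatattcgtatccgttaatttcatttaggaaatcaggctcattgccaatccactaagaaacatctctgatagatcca
The windows of the storage protein genes were chr5:8509202-8509501 for VSP1 and chr5:8502225-8502524 for VSP2, both on the minus strand, and there capitals mark 3 runs of at least 15 bases, of 15, 23 and 15 bases, that both windows hold in the same order.
VSP1: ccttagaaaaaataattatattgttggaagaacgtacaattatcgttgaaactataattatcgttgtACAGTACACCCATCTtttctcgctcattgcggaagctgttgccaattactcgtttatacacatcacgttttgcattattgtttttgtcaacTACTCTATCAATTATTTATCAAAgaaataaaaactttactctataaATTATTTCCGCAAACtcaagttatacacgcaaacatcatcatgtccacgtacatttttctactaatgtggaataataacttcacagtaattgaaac
VSP2: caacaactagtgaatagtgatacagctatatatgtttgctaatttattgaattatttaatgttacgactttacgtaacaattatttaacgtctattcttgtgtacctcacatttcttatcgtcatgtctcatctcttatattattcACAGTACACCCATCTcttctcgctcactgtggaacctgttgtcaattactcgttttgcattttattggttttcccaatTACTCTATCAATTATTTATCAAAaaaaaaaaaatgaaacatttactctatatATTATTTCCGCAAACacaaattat
The runs began 233, 142 and 96 bases before the start of VSP1 and 154, 76 and 24 bases before that of VSP2.

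Motifs were searched on both strands and chosen after expression values had been seen, so their presence is a description. The G-box CACGTG was in 1 of the 10 windows, that of AOS, directly before its start, and in 7.09% of 27431 protein-coding promoter windows of the same length. CACATG, or CATGTG on the other strand, was in the windows of LOX2 and JAZ10 and in 13.1% of all windows. The evening element AAATATCT, or AGATATTT, was in those of AOC2 and JAZ10 and in 5.64% of all windows. The GCC box AGCCGCC, or GGCGGCT, was in none of the 10 windows and in 0.7% of all windows. None of these motifs overlapped another.

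Library totals ran from 6545003 to 31449700 counts with a median of 13592728. Ribosomal RNA took 0.0423% to 32.9% of the counts, the highest share being that of T5H replicate 3, and T8H libraries held 19.0% to 26.0% against 3.58% to 8.55% in T8L libraries. Levels are counts scaled to library size (CPM), with library sizes scaled by TMM, listed as replicates 1, 2 and 3. T5H replicate 3 stood apart: a chi-square of its counts against those of T5H replicates 1 and 2 was 497 and 319 per degree of freedom, against 7.75 to 103 for the other pairs of libraries within a group. These values include the ribosomal RNA loci, which held 32.9% of the counts in T5H replicate 3 and 0.0720% and 0.0423% in T5H replicates 1 and 2. The part of ribosomal RNA in them was not tested. A floor of 3 counts in 1 library was 0.0954 to 0.458 CPM by library totals before TMM scaling, for counting error only. The 5 leaf markers summed to 8248 to 33027 CPM over the 21 libraries. The 6 root markers summed to 6.20 to 31.0 CPM, nearly all of it PYK10, with BGLU21 at 0 to 0.0791 CPM and COBL9 at 0 to 0.0616 CPM, and the 5 flower markers to 0.336 to 6.20 CPM. The 3 trichome markers, GL2, GL3 and TRY, summed to 2.21 to 16.5 CPM, and the 3 guard cell markers, MYB60, FAMA and KAT1, to 20.8 to 33.9 CPM. In these whole rosettes, fewer cells of a type and less RNA per cell cannot be told apart.

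Against the dark, most of the 10 genes rose, and 1 call was a fall. After 2, 5 and 8 h of high light, 7, 7 and 9 of the 10 genes rose and none fell. After 2, 5 and 8 h of standard light, 7, 5 and 6 rose, and 1, MYC2 at 5 h, fell, where 23.8% of all genes tested fell. These counts stand on a broad change of the transcriptome: of all 19626 genes tested, 43.3%, 47.2% and 47.3% were called after 2, 5 and 8 h of high light, 21.8%, 24.3% and 23.4% as higher than in the dark. For standard light the shares called were 42.4%, 46.7% and 42.9%, and the shares higher 21.1%, 22.9% and 21.1%. The median log2 fold change of the 10 genes over dark was 1.77, 2.05 and 2.36 at 2, 5 and 8 h of high light and 1.90, 0.56 and 1.87 at 2, 5 and 8 h of standard light, and that of all genes tested lay between -0.0029 and 0.027. Rises and falls are calls with an adjusted p under 0.05 in edgeR's quasi-likelihood test, with Benjamini-Hochberg correction over all genes tested. The 6 comparisons share the same 3 dark libraries and are not independent of each other. The leaf markers summed to 8248 to 29894 CPM in light libraries against 23459 to 33027 CPM in dark libraries, and the trichome markers averaged 15.3, 9.73 and 5.25 CPM in T2H, T5H and T8H and 13.0, 3.80 and 5.05 CPM in T2L, T5L and T8L against 13.9 CPM in T0D. The part of these markers in the rises was not tested.

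**Figure D1:**
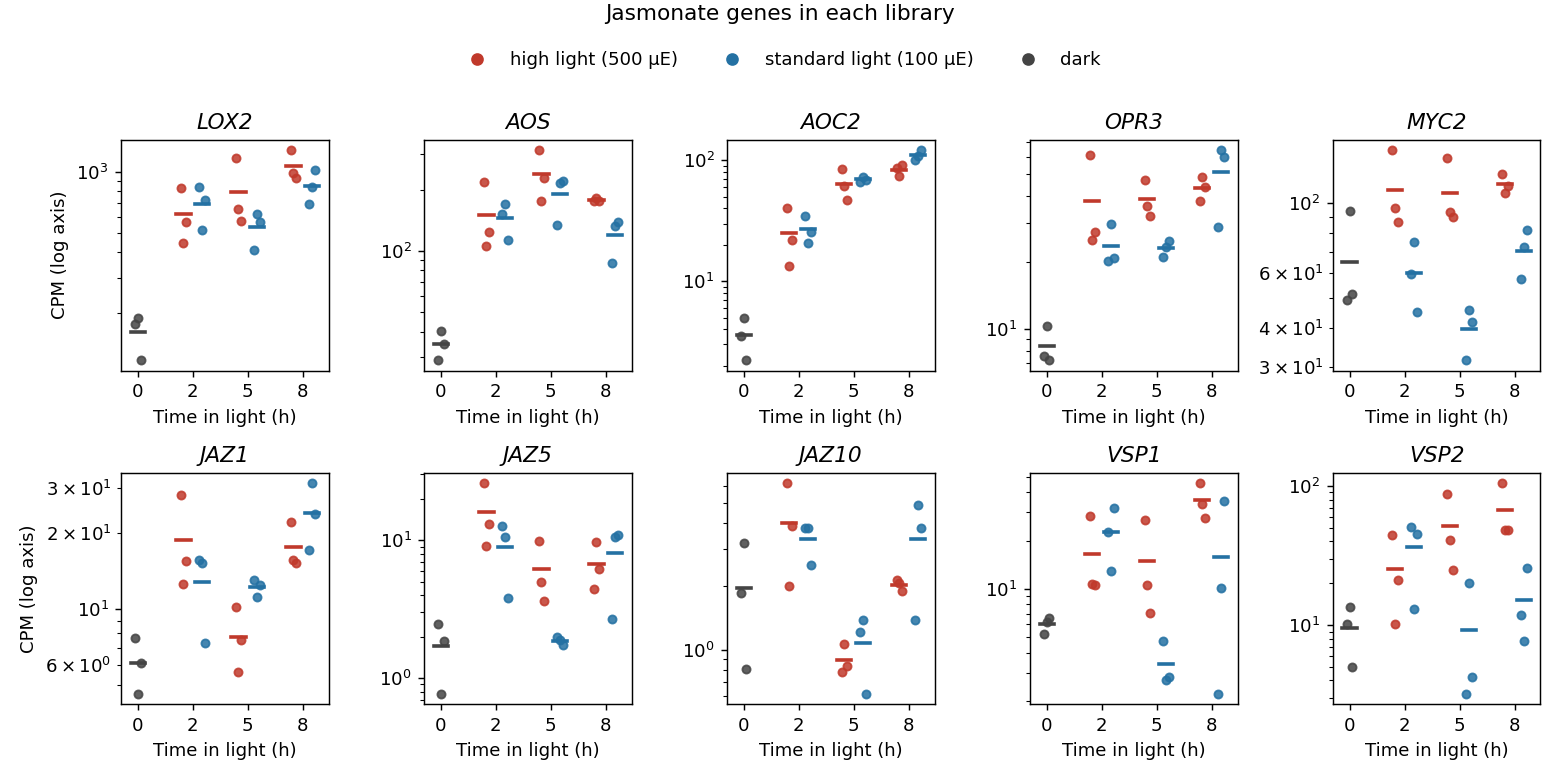
Level of each of the 10 jasmonate genes in every library, in CPM on a log axis with its own range in each panel, against hours in light, with dark at 0 h. Points are libraries (red, high light; blue, standard light; grey, dark) and bars are means of 3 libraries. For LOX2, AOS, AOC2 and OPR3 every light library lies above every dark library.

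Each of the 4 enzymes of synthesis rose over dark at every hour of both intensities, 24 calls of 24. These calls share the same 3 dark libraries and are not separate results. The share of all genes tested that rose in all 6 comparisons was not counted. LOX2 stood at 177, 189 and 117 CPM in the 3 dark libraries. High light gave 833, 445 and 565 CPM at 2 h, 1163, 657 and 572 at 5 h and 1278, 986 and 929.8 at 8 h. Standard light gave 838, 515 and 720.1 CPM at 2 h, 412, 617 and 563 at 5 h and 689.8, 844 and 1016 at 8 h. Every light library lay above every dark one, and at each hour the libraries of the 2 intensities overlapped. LOX2, the entry into the pathway, rose over dark by 1.93 ± 0.29, 2.31 ± 0.29 and 2.72 ± 0.30 (log2 ± SE) at 2, 5 and 8 h of high light and by 2.1 ± 0.29, 1.72 ± 0.29 and 2.40 ± 0.29 at 2, 5 and 8 h of standard light. Its largest adjusted p among these 6 was 2.29e-05. Between the intensities LOX2 did not pass: high light gave -0.17 ± 0.28, 0.59 ± 0.28 and 0.32 ± 0.28 over standard light at 2, 5 and 8 h, with adjusted p of 0.799, 0.172 and 0.491.

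AOS, which commits the lipoxygenase product to jasmonate, had its highest mean at 5 h at both intensities. Its 5 h libraries overlapped those at 2 h and at 8 h of the same intensity, and hours were not tested against each other. AOS stood at 29.0, 40.2 and 34.7 CPM in the 3 dark libraries. High light gave 218, 105 and 124 CPM at 2 h, 313, 176 and 227 at 5 h and 175, 181 and 176 at 8 h. Standard light gave 152, 170.0 and 114 CPM at 2 h, 134, 215 and 221 at 5 h and 87.4, 132 and 139 at 8 h. Every light library stood above every dark one. The log2 fold changes over dark at 2, 5 and 8 h were 2.11 ± 0.27, 2.78 ± 0.28 and 2.36 ± 0.27 in high light and 2.07 ± 0.27, 2.45 ± 0.28 and 1.78 ± 0.27 in standard light, all called, the largest adjusted p being 8.13e-06. At 8 h all 3 high-light libraries stood above all 3 standard-light libraries, by 0.57 ± 0.26 on the log2 scale with an adjusted p of 0.147, which did not pass.

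AOC2 reached the largest rise over dark of the 10 genes, after 8 h of standard light. AOC2 stood at 3.52, 4.98 and 2.21 CPM in the 3 dark libraries. High light gave 40.5, 13.4 and 21.8 CPM at 2 h, 84.5, 61.5 and 47.0 at 5 h and 85.9, 74.9 and 91.0 at 8 h. Standard light gave 34.7, 20.8 and 25.6 CPM at 2 h, 66.6, 72.8 and 69.1 at 5 h and 100.3, 108 and 122 at 8 h. Its mean was higher in each later group within an intensity, with no overlap between 2 h and 5 h libraries at either intensity or between 5 h and 8 h libraries in standard light. Its log2 fold change over dark was 2.81 ± 0.33, 4.17 ± 0.35 and 4.55 ± 0.35 at 2, 5 and 8 h of high light and 2.90 ± 0.34, 4.28 ± 0.35 and 4.94 ± 0.35 at 2, 5 and 8 h of standard light, with adjusted p of 4.74e-07 or less. T8H libraries averaged 83.9 ± 8.20 CPM and T8L libraries 110.1 ± 10.8 CPM (SD, n = 3 each), a log2 difference of -0.39 ± 0.29 that did not pass (adjusted p = 0.41).

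OPR3, the reductase that follows the cyclase, had its highest libraries at 2 h of high light and 8 h of standard light. OPR3 stood at 7.53, 10.3 and 7.23 CPM in the 3 dark libraries. High light gave 61.3, 25.3 and 27.5 CPM at 2 h, 47.2, 36.1 and 32.4 at 5 h and 37.8, 48.6 and 43.8 at 8 h. Standard light gave 20.3, 29.9 and 20.8 CPM at 2 h, 21.0, 23.5 and 25.0 at 5 h and 28.8, 64.3 and 59.7 at 8 h. T2H replicate 1 stood far above the other T2H libraries, and T8L replicate 1 far below the other T8L libraries. OPR3 rose over dark by 2.19 ± 0.31, 2.21 ± 0.31 and 2.37 ± 0.32 at 2, 5 and 8 h of high light and by 1.51 ± 0.31, 1.47 ± 0.31 and 2.61 ± 0.32 at 2, 5 and 8 h of standard light, with adjusted p of 0.000481 or less. Against standard light, high light gave 0.68 ± 0.30 at 2 h, 0.74 ± 0.30 at 5 h and -0.23 ± 0.29 at 8 h, with adjusted p of 0.224, 0.107 and 0.667.

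**Figure D2:**
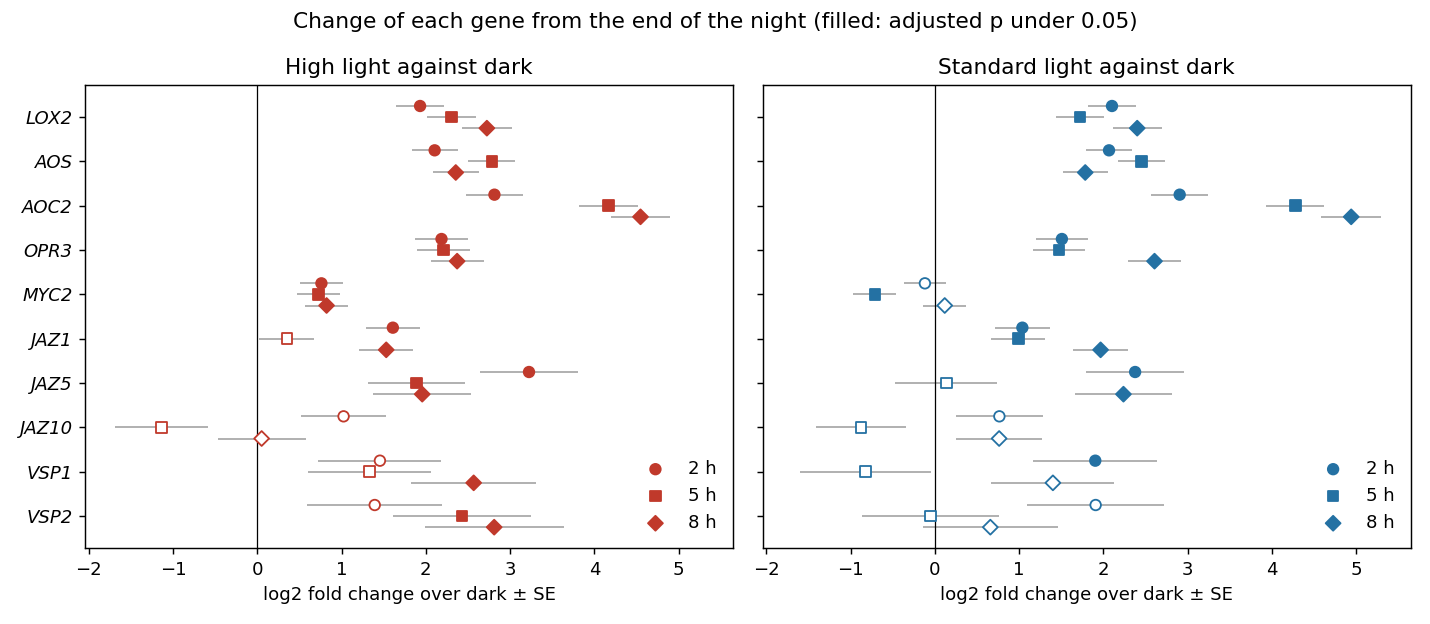
log2 fold change ± SE of each gene over the 3 dark libraries after 2, 5 and 8 h (circles, squares, diamonds) of high light (left) and of standard light (right), 3 libraries a group, on a shared axis. Filled symbols have an adjusted p under 0.05: all 24 of the 4 enzymes are filled and lie right of 0, and no symbol of JAZ10 is filled.

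MYC2, the basic helix-loop-helix factor that drives much of the response, was called higher in high than in standard light at 5 h only. MYC2 stood at 49.1, 94.6 and 51.3 CPM in the 3 dark libraries. High light gave 147, 96.1 and 87.1 CPM at 2 h, 139, 93.4 and 90.5 at 5 h and 124, 107 and 114 at 8 h. Standard light gave 59.4, 75.0 and 45.1 CPM at 2 h, 31.6, 45.6 and 41.7 at 5 h and 57.2, 72.3 and 81.9 at 8 h. At each of the 3 hours, every high-light library lay above every standard-light library. How many of all genes tested were separated in this way was not counted. The log2 fold change of high over standard light was 0.88 ± 0.25 at 2 h (adjusted p = 0.0618), 1.44 ± 0.26 at 5 h (adjusted p = 0.000894) and 0.71 ± 0.25 at 8 h (adjusted p = 0.0605), so that only the difference at 5 h passed. In the authors' deposited table the same comparison at 5 h has a log2 fold change of 1.45 and an FDR of 0.023. The call at 5 h held under all 14 alternatives, with adjusted p up to 0.0184, and the difference at 2 h or 8 h passed under some of them, among them DESeq2 with adjusted p of 0.0285 at 2 h and 0.046 at 8 h and, at 2 h, the fit without T2H replicate 3 (0.0447). Tests of whether the effect itself changed with time gave 0.56 ± 0.36 for 5 h minus 2 h and -0.74 ± 0.36 for 8 h minus 5 h, with adjusted p of 0.507 and 0.304.

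Against the dark, MYC2 rose in high light by 0.76 ± 0.25, 0.73 ± 0.25 and 0.82 ± 0.25 at 2, 5 and 8 h, with adjusted p of 0.0174, 0.0204 and 0.00988. In standard light it fell by 0.71 ± 0.26 at 5 h, with an adjusted p of 0.0244, and gave -0.12 ± 0.25 at 2 h and 0.12 ± 0.25 at 8 h, neither called. These calls changed when single libraries were left out. T0D replicate 2, at 94.6 CPM, stood well above the other dark libraries. Without T0D replicate 2 the fall at 5 h of standard light had an adjusted p of 0.296, and without T5L replicate 1 one of 0.116. The 3 rises in high light were lost without T0D replicate 1 or replicate 3, with adjusted p of 0.059 to 0.106, those at 2 h and 5 h also without T2H or T5H replicate 1, at 0.147 and 0.125, and that at 5 h with only its 2 groups in the fit, at 0.0752.

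The JAZ genes encode repressors that jasmonate removes and that MYC2 in turn induces, and the 3 followed here differed in which groups passed. JAZ1 stood at 7.67, 4.63 and 6.12 CPM in the 3 dark libraries. High light gave 28.3, 12.5 and 15.4 CPM at 2 h, 10.2, 5.63 and 7.52 at 5 h and 22.0, 15.7 and 15.1 at 8 h. Standard light gave 15.6, 15.2 and 7.32 CPM at 2 h, 13.1, 11.1 and 12.4 at 5 h and 17.1, 31.3 and 23.6 at 8 h. In high light the 5 h libraries overlapped the dark ones while the 2 h and 8 h libraries did not. JAZ1 rose over dark by 1.61 ± 0.32 at 2 h and 1.53 ± 0.32 at 8 h of high light, gave 0.35 ± 0.33 at 5 h (adjusted p = 0.4), and rose by 1.04 ± 0.33, 0.99 ± 0.32 and 1.97 ± 0.32 at 2, 5 and 8 h of standard light. Its rises at 2 h and 5 h of standard light were lost without T0D replicate 2, with adjusted p of 0.0664 and 0.0731, and that at 2 h also without T2L replicate 1 or 2, at 0.0525 and 0.067. At 5 h all high-light libraries lay below all standard-light libraries, a log2 difference of -0.64 ± 0.32 with an adjusted p of 0.199.

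JAZ5 had its highest mean at 2 h of high light, where its libraries overlapped those at 2 h of standard light. The log2 difference between those groups was 0.85 ± 0.52 and did not pass (adjusted p = 0.401). JAZ5 stood at 2.49, 0.771 and 1.84 CPM in the 3 dark libraries. High light gave 25.8, 9.09 and 13.1 CPM at 2 h, 9.91, 4.98 and 3.62 at 5 h and 4.40, 9.71 and 6.18 at 8 h. Standard light gave 12.6, 10.6 and 3.80 CPM at 2 h, 2.00, 1.89 and 1.73 at 5 h and 2.68, 10.6 and 10.8 at 8 h. At 5 h of standard light it was within the range of the dark libraries. JAZ5 rose over dark by 3.22 ± 0.58, 1.89 ± 0.58 and 1.96 ± 0.58 at 2, 5 and 8 h of high light and by 2.38 ± 0.58 and 2.24 ± 0.58 at 2 and 8 h of standard light, and gave 0.14 ± 0.61 at 5 h of standard light. The rise at 5 h of high light was lost without T5H replicate 1 (adjusted p = 0.0895) or T0D replicate 2 (0.0534), and that at 8 h of high light with limma voom (0.0607). At 5 h it was 1.76 ± 0.57 higher in high than in standard light, with an adjusted p of 0.0481 and no overlap of the libraries. That call was lost under 9 of 14 alternatives, among them an adjusted p of 0.32 without T5H replicate 1, 0.126, 0.127 and 0.143 without T5L replicates 1, 2 and 3, 0.0715 without T5H replicate 2, 0.153 with the ribosomal RNA share as a covariate, 0.0884 with limma voom and 0.0506 with only the 2 groups in the fit, and the authors' deposited table does not list it.

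JAZ10 had few counts, between 35 and 170 counts summed over the 3 libraries of a group. JAZ10 stood at 1.87, 3.22 and 0.812 CPM in the 3 dark libraries. High light gave 6.17, 2.00 and 3.88 CPM at 2 h, 0.785, 1.06 and 0.835 at 5 h and 2.15, 2.06 and 1.89 at 8 h. Standard light gave 3.79, 3.79 and 2.53 CPM at 2 h, 1.21, 1.39 and 0.616 at 5 h and 1.38, 4.89 and 3.77 at 8 h. All 2 h libraries lay above all 5 h libraries at both intensities, while every light group overlapped the dark libraries and the intensities overlapped at each hour. JAZ10 passed in none of the 9 comparisons, the log2 fold changes nearest to the threshold being -1.14 ± 0.55 at 5 h and 1.02 ± 0.51 at 2 h of high light over dark, with adjusted p of 0.0962 and 0.107. Single libraries decided both: at 2 h of high light the value passed at 1.57 without T0D replicate 2 (adjusted p = 0.0338) and at 1.41 without T2H replicate 2 (0.0344), and at 5 h of high light it passed at -1.50 without T0D replicate 3 (0.0324).

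VSP1 and VSP2, the storage protein outputs, had the largest standard errors of the 10 genes. VSP1 stood at 5.25, 6.24 and 6.57 CPM in the 3 dark libraries. High light gave 28.3, 10.7 and 10.5 CPM at 2 h, 26.7, 10.6 and 7.10 at 5 h and 45.4, 33.8 and 27.5 at 8 h. Standard light gave 22.7, 12.8 and 32.0 CPM at 2 h, 4.71, 2.71 and 2.83 at 5 h and 2.22, 10.1 and 35.2 at 8 h. T8L libraries differed the most among themselves. VSP1 rose over dark by 2.57 ± 0.74 at 8 h of high light (adjusted p = 0.00985) and by 1.90 ± 0.74 at 2 h of standard light (adjusted p = 0.0489). The second call was lost under 6 of 14 alternatives, with adjusted p of 0.119, 0.107 and 0.0976 without T0D replicates 1, 2 and 3 and of 0.0806 and 0.15 without T2L replicates 1 and 3. At 8 h of standard light VSP1 gave 1.40 ± 0.73 (adjusted p = 0.137), and without T8L replicate 1 it passed at 1.91 (0.0183). Without T8L replicate 3 the same value was 0.035 (adjusted p = 0.976).

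VSP2 had 2 calls over dark, both in high light, and its libraries spread widely. VSP2 stood at 10.2, 13.6 and 5.02 CPM in the 3 dark libraries. High light gave 44.3, 10.1 and 21.3 CPM at 2 h, 88.5, 40.6 and 24.9 at 5 h and 104, 48.2 and 48.4 at 8 h. Standard light gave 50.6, 13.1 and 45.3 CPM at 2 h, 3.21, 20.2 and 4.25 at 5 h and 11.8, 7.74 and 25.8 at 8 h. Replicate 1 was the highest library of each high-light group, and replicate 2 held most of the T5L signal. VSP2 rose over dark by 2.43 ± 0.82 at 5 h and 2.81 ± 0.83 at 8 h of high light, with adjusted p of 0.0234 and 0.0114, and did not pass at 2 h of high light or at any hour of standard light. At 2 h of standard light it gave 1.91 ± 0.81 with an adjusted p of 0.0725, and this passed under 5 of 14 alternatives, among them DESeq2 (0.0337), limma voom (0.0398), only the 2 groups in the fit (0.0219) and the fit without T2L replicate 2, where it was 2.32 (0.0425). The call at 5 h of high light was lost without T5H replicate 1, where the value was 1.79 (adjusted p = 0.111), without T0D replicate 1 (0.0602) or 3 (0.0851) and with the ribosomal RNA share as a covariate (0.0517).

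The widest gaps between intensities at 5 h and 8 h were those of the storage proteins, though they did not pass. At 5 h, T5H libraries averaged 51.3 ± 33.1 CPM of VSP2 and T5L libraries 9.21 ± 9.51 CPM (SD, n = 3 each), a log2 fold change of 2.48 ± 0.82 with an adjusted p of 0.062. At 8 h the means were 67.0 ± 32.4 CPM in T8H and 15.1 ± 9.47 CPM in T8L, a log2 fold change of 2.15 ± 0.80 with an adjusted p of 0.0857. For VSP1 the log2 fold change was 2.16 ± 0.76 at 5 h (adjusted p = 0.0789) and 1.17 ± 0.70 at 8 h (adjusted p = 0.299). At 5 h no high-light library of either gene overlapped a standard-light library, and at 2 h both genes gave values below 0 that did not pass, -0.45 ± 0.70 and -0.51 ± 0.77. Several alternatives put these differences past the threshold: DESeq2 gave adjusted p of 0.0147 and 0.0333 for VSP2 at 5 h and 8 h and 0.0252 for VSP1 at 5 h, and limma voom gave 0.00732 and 0.0116 for VSP2 at 5 h and 8 h and 0.0238 for VSP1 at 8 h. Without T8L replicate 3 the log2 fold change of VSP1 at 8 h was 2.53 in place of 1.17 (adjusted p = 0.0233). Without T5L replicate 2 that of VSP2 at 5 h was 3.78 in place of 2.48 (adjusted p = 0.0246). Without T5H replicate 3 those of VSP1 and VSP2 at 5 h were 2.44 and 2.78 (adjusted p = 0.0461 and 0.034). Leaving out T5H replicate 1 instead lowered those of VSP1 and VSP2 at 5 h to 1.38 and 1.81 (adjusted p = 0.413 and 0.282).

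Counted over the 10 genes, high light against standard light gave 0 calls at 2 h, 2 at 5 h and 0 at 8 h in edgeR's test. Of all genes tested, 2.66%, 12% and 15.4% were called at 2, 5 and 8 h, 7.29% being called as higher at 5 h. These shares moved with single libraries, between 0.549% (without T2L replicate 1) and 3.94% (without T2L replicate 3) at 2 h, between 4.24% (without T5H replicate 1) and 23.2% (without T5H replicate 3) at 5 h and between 8.3% (without T8L replicate 2) and 13% (without T8H replicate 3) at 8 h. The 2 calls at 5 h were MYC2 and JAZ5, both higher in high light. At an unadjusted p under 0.05 there were 2, 6 and 3 of the 10 genes at 2, 5 and 8 h, beside 18.4%, 27.4% and 28.5% of all genes tested. DESeq2 called 1, 4 and 2 of the 10, beside 5.52%, 16% and 19.1% of all genes tested. The median log2 fold change of the 10 genes was 0.15, 0.66 and 0.045 at 2, 5 and 8 h, and that of all genes tested -0.00063, 0.023 and -0.027. No gene of the 10 passed a test for a change of the high-light effect with time, for 5 h minus 2 h, 8 h minus 5 h or 8 h minus 2 h, where 0.759%, 2.13% and 10.2% of all genes tested were called. At an unadjusted p under 0.05 there were 3, 2 and 3 of the 10, beside 14.1%, 16.6% and 25% of all genes tested. Without T8L replicate 3 the change of VSP1 for 8 h minus 2 h passed (adjusted p = 0.0443).

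Marker sums also differed between intensities. The leaf markers summed to 16618 to 27112 CPM in T2H against 12897 to 15950.2 CPM in T2L, and to 8248 to 9372 CPM in T8H against 9967 to 11929 CPM in T8L, with no overlap at either hour. At 5 h the trichome markers summed to 5.57 to 12.1 CPM in T5H against 2.21 to 4.99 CPM in T5L, and at 8 h the guard cell markers to 24.9 to 31.4 CPM in T8H against 20.8 to 22.2 CPM in T8L, again with no overlap. The part of these markers in the differences between intensities was not tested.

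**Figure D3:**
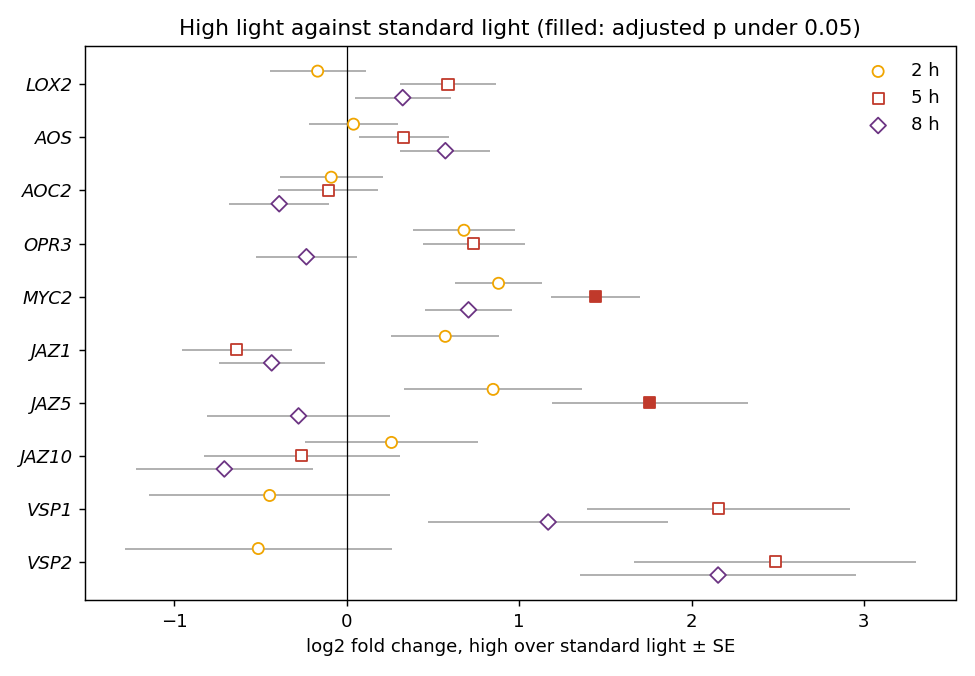
log2 fold change ± SE of each gene, high over standard light, at 2, 5 and 8 h (circles, squares, diamonds), 3 libraries a group. Filled symbols have an adjusted p under 0.05: only MYC2 and JAZ5 at 5 h are filled, and the open symbols of VSP1 and VSP2 at 5 h lie further right with wider errors.

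Levels can be set against each other per length. In CPM per kb of gene span, LOX2 was the highest of the 10 in all 7 groups, at 259 in T8H, 207 in T8L and 39.2 in T0D, and the lowest was JAZ5 in T0D and JAZ10 in the 6 light groups. In T8H the order ran LOX2, AOS at 87.3, AOC2 at 59.8, VSP2 at 38.2, MYC2 at 34.9, VSP1 at 22.0, OPR3 at 13.3, JAZ1 at 9.31, JAZ5 at 2.87 and JAZ10 at 0.888, with the libraries of AOC2 and VSP2, of VSP2 and MYC2, and of OPR3 and JAZ1 overlapping. In T0D the order ran LOX2, MYC2 at 19.8, AOS at 17.0 and VSP2 at 5.46, and AOC2 followed VSP1, JAZ1 and OPR3 at 2.55. There the libraries of LOX2 and MYC2 overlapped, as did those of MYC2 and AOS. AOC2 was the third in T8H and, at 78.5 against 58.7 for AOS, the second in T8L.

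Within T0D, T2H, T5H and T8L most of the 10 genes put the same library on top. T0D replicate 2 was the highest dark library for 7 of the 10 genes and the lowest for 2. Over all genes tested it was the highest for 32.5%. T2H replicate 1 was the highest of its 3 libraries for 10 of the 10 genes, T5H replicate 1 for 9 and T8L replicate 3 for 7, where over all genes tested these libraries were the highest for 32.1%, 36% and 30%. T8L replicate 1 was the lowest of its group for 9 of the 10 genes and for 38.2% of all genes tested, and T5H replicate 3 for 7 of the 10 and for 39.2%. Elsewhere the genes were split, as in T2L, where replicates 1, 2 and 3 were the highest for 5, 4 and 1 of them, in T5L with 3, 5 and 2, and in T8H with 6, 3 and 1. The genes share their libraries and are not replicates of each other. Beside them stand 7 genes known to respond to touch and early stress, among them TCH2, TCH3, TCH4 and WRKY40. Their summed level was 142 CPM in T2H replicate 1 and 119 and 86.9 CPM in T2H replicates 2 and 3, and 72.3, 98.8 and 56.8 CPM in T5H replicates 1, 2 and 3. In T8L it was 315, 554 and 509 CPM in replicates 1, 2 and 3. Their part in the spread of the jasmonate genes was not tested.

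**Figure D4:**
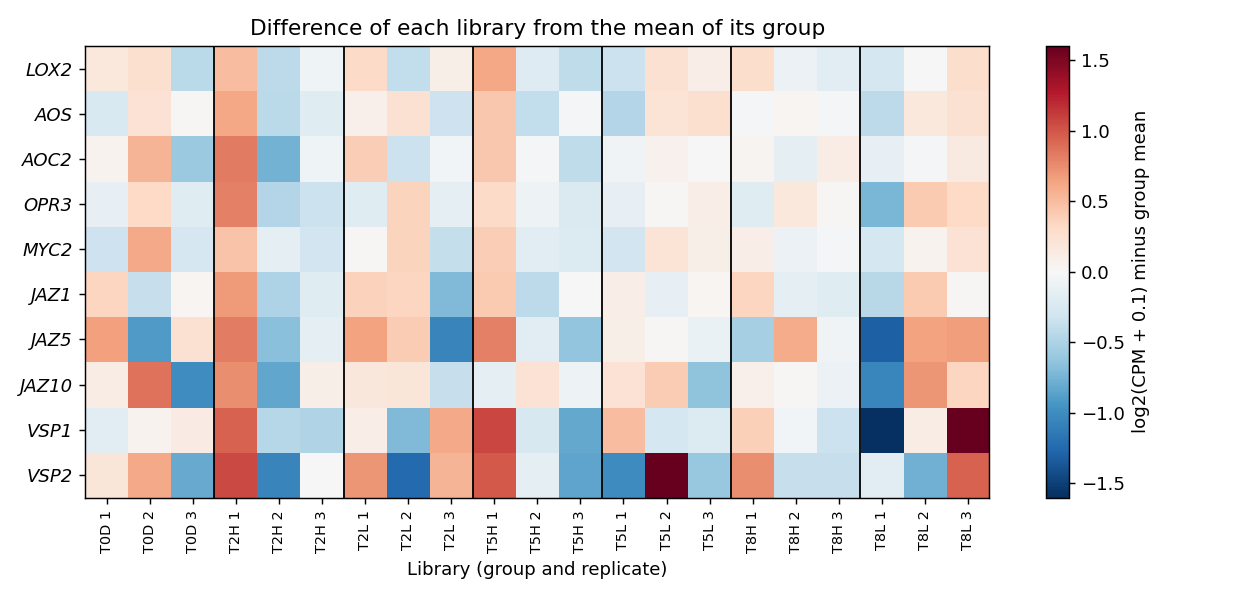
Difference of each library from the mean of its group, in log2(CPM + 0.1), for the 10 genes (rows) and 21 libraries (columns, labelled by group and replicate, with black lines between groups). Red is above and blue below the group mean: the column of T2H replicate 1 is red for all 10 genes, and that of T8L replicate 1 is blue for all 10, palest for AOC2 and VSP2.

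The same 7 genes differed between groups. Their sum was 124 to 163 CPM in T8H libraries against 315 to 554 CPM in T8L libraries, and 987 to 1057 CPM in the dark libraries. TCH3 had 56986 counts over all libraries, against 8222 or fewer for each of the others, so the sum weighs TCH3 most. In T8L over dark TCH3 and TCH4 fell, by 1.39 ± 0.31 and 3.22 ± 0.47. ZAT10, WRKY40 and WRKY53 rose there by 0.86 to 1.29, and TCH2 and ZAT12 did not pass. Of all genes tested, 21.1% rose and 21.7% fell in that comparison. Of the 7, 5 fell in T8H relative to T8L, namely ZAT10, ZAT12, WRKY40, WRKY53 and TCH3, by 0.97 to 2.20 on the log2 scale. Of all genes tested, 7.62% fell there. TCH4 gave -1.38 ± 0.48 and TCH2 0.67 ± 0.24, neither called. At 5 h ZAT10 and ZAT12 rose in T5H relative to T5L, by 1.93 ± 0.30 and 1.74 ± 0.36, where 7.29% of all genes tested rose. At 2 h none of the 7 passed, where 2.66% of all genes tested were called. Whether this bears on the comparison of intensities at 8 h was not tested.

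The wider pathway was followed through 47 further jasmonate genes, of which 43 passed the filter. DAD1, AT3G11180, JAZ4 and JAZ8 did not, with 5, 3, 24 and 77 counts over all 21 libraries. High light over standard light called 2 of the 43 at 2 h, both higher, 3 at 5 h, all higher, and 3 higher and 3 lower at 8 h. Of all genes tested, 1.45% and 7.29% were called as higher at 2 h and 5 h, and 7.79% as higher and 7.62% as lower at 8 h. The median log2 fold change of the 43 was 0.36, 0.19 and -0.27 at 2, 5 and 8 h, beside the medians near 0 of all genes given above.

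Among the genes of synthesis, LOX3, another chloroplast lipoxygenase, rose at 5 h by 1.23 ± 0.40 (adjusted p = 0.0499), with 50.4, 29.9 and 21.6 CPM in T5H libraries and 15.3, 15.6 and 13.0 CPM in T5L libraries. LOX4, a close relative of LOX3, fell at 8 h by 1.54 ± 0.48 (adjusted p = 0.0336), with 10.1, 9.47 and 7.82 CPM in T8H and 13.2, 36.5 and 30.6 CPM in T8L. KAT2, a thiolase of the peroxisomal beta-oxidation that ends the synthesis, fell at 8 h by 0.63 ± 0.18 (adjusted p = 0.0179), and ACX1, an acyl-CoA oxidase of the same step, rose at 2 h by 0.79 ± 0.21 (adjusted p = 0.0406). The libraries of LOX3 at 5 h and of LOX4 at 8 h did not overlap between intensities. The call of LOX3 was lost under 10 of 14 alternatives, among them without any one of T5L replicates 1, 2 and 3 or T5H replicates 1 and 2 (adjusted p 0.0877 to 0.32), and that of ACX1 under 8, among them without any one of T2L replicates 1, 2 and 3 or T2H replicates 1 and 2 (adjusted p 0.0561 to 0.213). The call of LOX4 was lost under 6, among them without any one of T8L replicates 2 and 3 or T8H replicates 1, 2 and 3 (adjusted p 0.0966 to 0.144), and that of KAT2 under 4, without any one of T8L replicates 2 and 3 or T8H replicates 1 and 2 (adjusted p 0.0508 to 0.0997). None of the 10 genes of conjugation and turnover was called at any hour in high against standard light.

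Of the receptor and repressor genes, JAZ9 stood at 312, 133 and 190.0 CPM in T2H, 165, 124 and 170.3 in T5H and 74.2, 85.1 and 79.2 in T8H. Standard light gave 146, 112 and 106 CPM of JAZ9 in T2L, 32.3, 64.8 and 53.2 in T5L and 22.9, 52.1 and 52.5 in T8L. The libraries of the 2 intensities overlapped at 2 h and did not at 5 h or 8 h. Relative to the dark, JAZ9 fell by 1.83 ± 0.30 in T5L, 2.07 ± 0.30 in T8L and 1.17 ± 0.29 in T8H, and was not called in T5H. JAZ9 rose in high over standard light by 1.61 ± 0.30 (adjusted p = 0.00143) at 5 h, a call kept under all 14 alternatives, and by 0.90 ± 0.30 (adjusted p = 0.0407) at 8 h, a call lost under 8 of them, among them without any one of T8L replicates 1 and 2 or T8H replicates 1, 2 and 3 (adjusted p 0.0519 to 0.196). JAZ12 rose at 2 h by 0.79 ± 0.18 (adjusted p = 0.0173), and lost that call with only the 2 groups in the fit (adjusted p = 0.105), without T2H replicate 1 (0.111) or without T2L replicate 1 (0.104). Of the transcription factors, MYC4, a close homologue of MYC2, rose at 8 h by 0.72 ± 0.22 (adjusted p = 0.0271), a call lost without any one of T8L replicates 1, 2 and 3 or T8H replicates 2 and 3 (adjusted p 0.0611 to 0.0989), while MYC3 gave 0.16 ± 0.17.

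Among output genes, CLH1, a chlorophyllase gene known to be induced by coronatine and jasmonate, rose by 1.5 ± 0.31 (adjusted p = 0.0035) at 5 h and 1.36 ± 0.31 (adjusted p = 0.00417) at 8 h, under all 14 alternatives at both hours. CLH1 stood at 65.5, 63.2 and 42.7 CPM in T5H and 21.3, 18.6 and 21.0 CPM in T5L, and at 89.5, 165 and 152 CPM in T8H and 30.3, 57.6 and 70.2 CPM in T8L. No T5H or T8H library overlapped its standard-light group. Relative to the dark, CLH1 fell by 1.09 ± 0.31 in T5L and rose by 1.64 ± 0.31 in T8H, and was not called in T5H or T8L. TAT3, a tyrosine aminotransferase gene known as jasmonate responsive, fell at 8 h by 1.49 ± 0.35 (adjusted p = 0.00651), with 86.4, 100.4 and 139.8 CPM in T8H and 151, 418 and 347 CPM in T8L. That call was lost with only the 2 groups in the fit, at an adjusted p of 0.0576. CLH1 and TAT3 are both outputs, and at 8 h the one was higher and the other lower in high light.

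**Figure D5:**
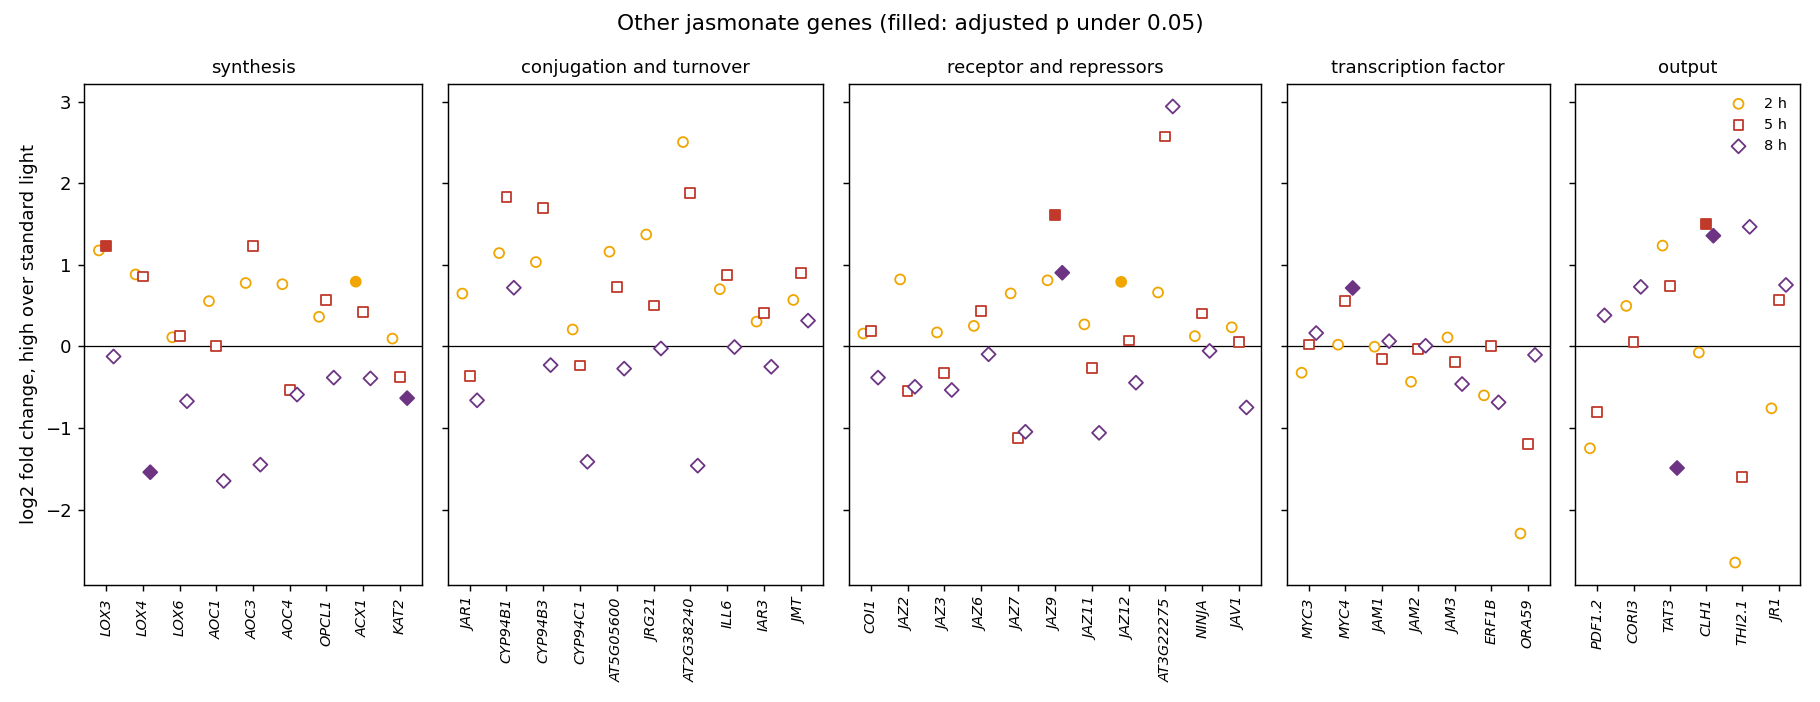
log2 fold change, high over standard light, of the 43 further jasmonate genes tested, grouped by role, at 2, 5 and 8 h (circles, squares, diamonds), 3 libraries a group. Filled symbols have an adjusted p under 0.05: 2 at 2 h, 3 at 5 h and 6 at 8 h, and for many genes of synthesis the diamond lies below the circle.

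Over dark, the 43 genes moved in both directions. The genes named here are only some of those called, chosen after their values were seen. In high light 16, 8 and 10 rose and 7, 11 and 7 fell at 2, 5 and 8 h, and in standard light 10, 5 and 11 rose and 11, 16 and 7 fell. Of all genes tested, 21.5%, 22.8% and 23.9% fell at 2, 5 and 8 h of high light and 21.4%, 23.8% and 21.7% at 2, 5 and 8 h of standard light, beside the shares that rose given above. LOX3 and OPCL1, a CoA ligase for the jasmonate precursor, rose in all 6 comparisons, as did the outputs CORI3 and TAT3. TAT3 gave 4.07 ± 0.40 over dark in T8H and 5.56 ± 0.43 in T8L, at 109 ± 27.7 CPM in T8H, 305 ± 138 CPM in T8L and 6.47 ± 1.25 CPM in T0D (SD, n = 3 each). COI1, the receptor, fell in all 6, by 1.53 ± 0.18 in T8H, and so did JAZ3, by 2.03 ± 0.33 in T8H, its call in T2H being lost without T2H replicate 2 (adjusted p = 0.0648). Of the enzymes that break down the active conjugate, CYP94B1 rose in 5 of the 6, from a level at or under the floor of 3 counts in the dark, and reached 9.06, 0.895 and 3.56 CPM in T2H and 2.58, 3.17 and 0.422 CPM in T2L. CYP94B3, a hydroxylase of the conjugate as well, rose in 4 of the 6, by 4.41 ± 0.91 in T2H and 3.38 ± 0.91 in T2L. With limma voom the calls of CYP94B1 in T5H, T8H and T8L were lost, at adjusted p of 0.066, 0.0725 and 0.251, as were those of CYP94B3 in T2L, T8H and T8L, at 0.138, 0.0543 and 0.104. Without T2L replicate 2 CYP94B3 gave 2.28 in T2L (adjusted p = 0.0579), and without T2H replicate 1 it gave 3.73 in T2H and was still called. The call of CYP94B1 in T8L was also lost without any one of T0D replicates 2 and 3 or T8L replicate 3 (adjusted p 0.0753 to 0.143).

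Likeness was measured as Pearson's r of log2 CPM over the 21 libraries, which share groups and library effects, against 17514 genes with a mean of at least 1 CPM, and is given as a description. The genes most like LOX2 were NATA1 (r = 0.93) and PGDH (r = 0.93), and those most like AOS were FAS4 (0.95) and UGT84A3 (0.94). AOC2 had the closest partner of all, RK3, at r = 0.98, followed by STT3B at 0.96. OPR3 was most like FAMT (0.95) and PGDH (0.94). MYC2 was most like HAI1, which encodes a protein phosphatase known from abscisic acid signalling, at r = 0.90, then AT1G62370 at 0.81. JAZ1 was most like ABCC15 (0.85) and AT4G36648 (0.81), JAZ5 most like AT1G61610 (0.90) and CYP94B3 (0.90), and JAZ10 most like CYP711A1 (0.78) and IAR3 (0.77). VSP1 was most like CLH1 (0.84) and AT4G11320 (0.79), and VSP2 most like TPI (0.77) and AT4G11320 (0.76). Within the 10, the 4 enzymes correlated with each other at r of 0.80 to 0.89 and VSP1 with VSP2 at 0.76. MYC2 ranged from 0.18 with AOC2 to 0.69 with VSP2, with 0.43 for LOX2 and 0.63 for VSP1.

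The authors' deposited table, made with a test against a minimum fold that is not stated, lists the 10 genes 36 times over the same 9 comparisons. All 36 entries were among the 44 calls made here from the counts. Both rest on the same libraries, and a test against a minimum fold is the stricter one, so this overlap is no separate support. Not listed were the calls of MYC2 over dark, of JAZ1 at 2 h and 5 h and VSP1 at 2 h of standard light over dark, and of JAZ5 between intensities at 5 h.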

How the data were processed

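Raw counts per locus, the unit of the deposited count files, were made by the authors with featureCounts 1.5.0 in reverse-stranded mode over 1 span per gene, so intron reads were counted, per the file headers; SAMtools 1.3.1, Subread 1.5.0, edgeR, Trim Galore 0.4.4 and FastQC 0.11.7 are named in the submitters' processing notes. Libraries were made from total RNA with ribosomal depletion, per the labels. No genome build is named in the sources used here, and 32896 of 33341 loci had the same start and end in TAIR10.1. The authors' deposited table of comparisons gives log2 fold changes and FDR values (adjusted p-values) of a test against a minimum fold, and their log2 RPKM table was not used. From the counts, R 4.3.3 with edgeR 4.0.16 fitted all 21 libraries in 1 quasi-likelihood model (TMM, filterByExpr, robust), with Benjamini-Hochberg adjustment over 19626 loci and a threshold of 0.05. The standard error is the size of the log2 fold change divided by the square root of F. Alternatives were RLE size factors, DESeq2 1.42.0, limma voom 3.58.1, no filter, only the groups compared, a replicate block, the ribosomal RNA share as a covariate, nuclear genes without ribosomal RNA, and leaving out each library. The scripts were tested on simulated data. The genes, lists, motifs and tests were chosen with earlier results of these data known. Of the 43 further jasmonate genes, those past the threshold between intensities were named, and so were those past it for a change of that effect with time. Up to 4 per role were taken, ordered by the size of the log2 fold change. Over dark, only some of the genes past the threshold were named. These, and genes named otherwise, were chosen after their values were seen.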

Additional observations from a re-analysis of the deposited data

Results flagged for a closer look

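Among the 43 further jasmonate genes, 11 results in 10 genes were picked out because the effect of high over standard light differed between hours by the test of the difference itself (edgeR, Benjamini-Hochberg adjusted p under 0.05). None of the 10 genes this account centres on was among them. All 10 genes differed between 8 h and 2 h, 8 of them with a lower and 2 with a higher effect at 8 h, where 10.2% of all genes tested were called, 1008 of these 2003 genes with a lower effect. TAT3 also differed between 8 h and 5 h, where 2.13% of all genes tested were called.

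Of the genes of synthesis, LOX4 had log2 effects of 0.88, 0.86 and -1.54 at 2, 5 and 8 h, and the difference of 8 h and 2 h was -2.42 ± 0.67 (SE, adjusted p = 0.0259). AOC4, an allene oxide cyclase, had 0.76, -0.54 and -0.59, a difference of -1.35 ± 0.39 (SE, adjusted p = 0.0278). ACX1 had 0.79, 0.42 and -0.39, a difference of -1.19 ± 0.29 (SE, adjusted p = 0.0117). Of the genes of conjugation and turnover, JAR1, the enzyme that makes the active conjugate, had 0.65, -0.36 and -0.66, a difference of -1.31 ± 0.32 (SE, adjusted p = 0.0111). AT2G38240 had 2.50, 1.88 and -1.46, a difference of -3.96 ± 1.19 (SE, adjusted p = 0.0375), from libraries at or under 9.80 CPM. Of the repressors, JAZ2 had 0.82, -0.55 and -0.49, a difference of -1.32 ± 0.35 (SE, adjusted p = 0.0166), and JAZ12 0.79, 0.07 and -0.44, a difference of -1.24 ± 0.25 (SE, adjusted p = 0.0025).

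Of the outputs, TAT3 had 1.24, 0.74 and -1.49, with a difference of -2.73 ± 0.50 (SE, adjusted p = 0.00193) between 8 h and 2 h and of -2.23 ± 0.50 (SE, adjusted p = 0.0258) between 8 h and 5 h. CLH1 and JR1, a jacalin-related lectin gene, went the other way: CLH1 had -0.08, 1.5 and 1.36, a difference of 1.43 ± 0.43 (SE, adjusted p = 0.0354), and JR1 -0.76, 0.57 and 0.75, a difference of 1.51 ± 0.40 (SE, adjusted p = 0.0196). The differences of TAT3 (8 h and 2 h) and JAZ12 held under all 20 alternatives. Those of JAZ2, ACX1 and JAR1 were lost without T2H replicate 1, with adjusted p of 0.0781, 0.0515 and 0.0514, that of JAR1 also with the ribosomal RNA share as a covariate, at 0.0829. With the ribosomal RNA share as a covariate the differences of LOX4, AOC4, AT2G38240, TAT3 (8 h and 5 h), CLH1 and JR1 were lost too, with adjusted p of 0.254, 0.122, 0.31, 0.17, 0.121 and 0.167. Single libraries ended the same 6 calls: that of LOX4 without any one of T8L replicates 2 and 3, T2H replicate 1 or T8H replicates 1, 2 and 3 (adjusted p 0.0551 to 0.0764), that of AOC4 without any one of T2L replicates 1 and 2, T8L replicates 1 and 3, T2H replicate 1 or T8H replicates 2 and 3 (adjusted p 0.0552 to 0.0795), that of AT2G38240 without any one of T2L replicates 1, 2 and 3, T8L replicates 2 and 3, T2H replicate 1 or T8H replicates 1, 2 and 3 (adjusted p 0.0551 to 0.106), that of TAT3 without any one of T5L replicates 1 and 3, T8L replicates 2 and 3, T5H replicate 1 or T8H replicates 1 and 2 (adjusted p 0.0644 to 0.0937), that of CLH1 without any one of T2L replicates 1 and 2, T8L replicates 1 and 2, T2H replicates 2 and 3 or T8H replicates 2 and 3 (adjusted p 0.064 to 0.0997) and that of JR1 without any one of T2L replicate 1, T8L replicates 1 and 2 or T8H replicate 2 (adjusted p 0.0526 to 0.0681). The summed level of the 7 touch and early stress genes was 124 to 163 CPM in T8H and 315 to 554 CPM in T8L, and 86.9 to 142 CPM in T2H and 115 to 130 CPM in T2L, and its part in these differences was not tested.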

How the results depend on the processing

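The 24 rises of the 4 enzymes over dark and the higher MYC2 in high light at 5 h kept their direction and their side of the threshold under all 14 alternatives of each. No named result that was called in either setting changed sign, and 44 values changed sign while called in neither. Counts of the 10 genes called in high against standard light were 0, 2 and 0 at 2, 5 and 8 h. DESeq2 gave 1, 4 and 2, beside 5.52%, 16% and 19.1% of all genes tested, no low-count filter 2, 5 and 3, beside 4.62%, 10.6% and 11.7%, and limma voom 3 at 8 h, beside 18.9%. A fit of the compared groups alone gave 4 at 8 h, beside 36.2% of all genes, and the ribosomal RNA share as a covariate 1 at 5 h, beside 8.25%. Leaving out 1 library gave 0 to 1 at 2 h (1 without T2H replicate 3, beside 2.67% of all genes). At 5 h it gave 1 to 4, with 4 without T5H replicate 3, beside 23.2%. There it gave 1 without T5L replicate 1 or 3 or T5H replicate 1 or 2, beside 4.24% to 7.72%. At 8 h it gave 0 to 1 (1 without T8L replicate 3, beside 9.63%). T5H against T0D gave 7 with all libraries, beside 47.2% of all genes. With a library left out it gave 4 to 7 (4 without T5H replicate 1, beside 42.9%). For the change of the effect with time, no filter gave 3 (5 h minus 2 h), 2 (8 h minus 5 h) and 4 (8 h minus 2 h) in place of 0, beside 2.44%, 3.87% and 8.71% of all genes. For 8 h minus 2 h, limma voom gave 1, beside 11.1%, and leaving out a library 0 to 1 (1 without T8L replicate 3, beside 6.29%). Without the filter 28940 genes entered the fit and the prior degrees of freedom were infinite, against a median of 10.6 with it. Counts of the 43 further genes were 2, 3 and 6 at 2, 5 and 8 h, beside 2.66%, 12% and 15.4% of all genes. DESeq2 gave 6 at 2 h and 10 at 8 h, beside 5.52% and 19.1%. No filter gave 14, 11 and 14, beside 4.62%, 10.6% and 11.7%. The compared groups alone gave 16 at 8 h, beside 36.2%, and the ribosomal RNA share 1 at 2 h, beside 0.836%. Leaving out a library gave 0 to 3 at 2 h, with 0 without T2L replicate 1 (0.549% of all genes) or T2H replicate 1 (0.767%). At 8 h it gave 2 to 5, with 2 without T8L replicate 2 (8.3%) or T8H replicate 2 (8.68%). The cause of these shifts was not tested.

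Replicate numbers were checked for pairing by the correlation of deviations from group means. Over 63 pairs of same-numbered libraries the median was 0.00167, the highest 0.330, and 2 pairs were over 0.1. Over 126 pairs with different numbers the median was -0.00364, the highest 0.217, and 6 were over 0.1. Of 21 libraries, 6 correlated best with their own number. A median over all genes cannot show whether some same-numbered libraries share a batch, which was not tested. With a replicate block, 1 of the 10 genes was called at 5 h and 1 of the 43 at 2 h in high against standard light, beside 11.8% and 2.16% of all genes. JAZ10, with 35 to 170 counts a group, and JAZ5 in the dark, with 72, rest on the fewest counts, while the limit for VSP1 and VSP2 was the spread between libraries.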
